A study of Mus musculus with 6 samples.

Results

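Antisense RNA loci are genes transcribed on the strand opposite to another gene. An expressed set of 719 such loci was described in RNA sequencing libraries from mouse testis cells that the labels call STRA8+. The loci were chosen by their measured level: they are the genes of biotype antisense in the deposited table whose mean over the 6 libraries was 1 FPKM or more, a read level corrected for gene length and library. They are 25.4% of the 2826 antisense genes in the table of 54532 genes. In the knockout 586 of them were lower (81.5%, against 50.4% of all genes tested), 77 were higher (10.7%, against 36.2%) and 56 were not called. Of the 719, 518 reached the minimum through the control mean alone, so that their mean had to be lower in the knockout, and of the 157 that reached it in both groups 75 were lower and 38 higher. The ratio of an antisense RNA to the coding gene on its other strand could be tested in 492 pairs, and it fell in 272 of them (55.3%, against 42.3% of all opposite-strand pairs) and rose in 116 (23.6%, against 37.8%). The antisense loci of these pairs were chosen by the same rule, which favours a fall of the ratio. The opposite-strand pairs also hold pairs of coding genes, whose order in the ratio carries no meaning.

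An antisense transcript can share its promoter region with the coding gene, run across its end, or lie inside it, often within an intron. Some antisense RNAs are known to act on the gene they overlap, as Airn and Kcnq1ot1 do at imprinted loci, while for most no function is known. Germ cells that enter meiosis and become round spermatids are known for transcribing a wide range of noncoding RNAs, many of them restricted to the testis.

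The study compared 3 control libraries, whose genotype is given as Cre, with 3 libraries given as knockout, a conditional knockout. The title names BCAS2, a spliceosome component, and hnRNPH1, an RNA-binding splicing regulator, in the repair of DNA breaks and in synapsis during meiosis, while the sample labels name neither a deleted gene nor the promoter that drives Cre. Of the title's genes, Hnrnph1 was at 61.2, 67.5 and 62.7 FPKM in the control libraries and at 129, 156 and 136 FPKM in the knockout libraries (adjusted p = 1.3e-05, limma). Bcas2 was at 19.9 ± 0.586 FPKM in the controls and at 4.85 ± 0.515 FPKM in the knockout (SD, n = 3; adjusted p = 7.6e-07, limma). The labels give no age, no strain and no number of animals behind a library, so every p-value reflects variation among these libraries that may be technical. The protocol text speaks of retinas where the other labels say testis. None of 6 photoreceptor genes reached the expression minimum, their summed level was 1.75 to 1.98 FPKM in the controls and 0.584 to 0.779 FPKM in the knockout, and Crx was at 0 in every library.

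The starts of some antisense genes are shown first, to set the letters of loci that fell beside those of loci that rose. Windows of 300 bases, from 250 before to 50 after a start, were taken from RefSeq on GRCm38.p6. A window was found by symbol for 348 of the 719 loci and lay within 50 bases of the deposited start for 226. The 6 windows below were chosen after their values were seen. They run 5′ to 3′ on the strand of the antisense gene, and capitals mark the MYB motif AACTGNC or the TATA box TATAAA on either strand. The windows of 1700108J01Rik (chr14:122233589-122233888, minus strand), 1700016K05Rik (chr17:66714206-66714505, plus), 1700029B22Rik (chr7:131146189-131146488, plus) and Itpr3os (chr17:27101401-27101700, minus) belong to loci that fell. Those of Rab26os (chr17:24528001-24528300, plus) and 4930599N23Rik (chr6:39118223-39118522, plus) belong to loci that rose.
1700108J01Rik: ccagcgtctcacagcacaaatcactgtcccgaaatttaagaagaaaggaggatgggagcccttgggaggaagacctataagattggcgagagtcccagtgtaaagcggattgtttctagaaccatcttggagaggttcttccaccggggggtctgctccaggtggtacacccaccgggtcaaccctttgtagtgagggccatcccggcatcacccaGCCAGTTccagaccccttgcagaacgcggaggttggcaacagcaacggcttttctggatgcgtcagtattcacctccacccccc
1700016K05Rik: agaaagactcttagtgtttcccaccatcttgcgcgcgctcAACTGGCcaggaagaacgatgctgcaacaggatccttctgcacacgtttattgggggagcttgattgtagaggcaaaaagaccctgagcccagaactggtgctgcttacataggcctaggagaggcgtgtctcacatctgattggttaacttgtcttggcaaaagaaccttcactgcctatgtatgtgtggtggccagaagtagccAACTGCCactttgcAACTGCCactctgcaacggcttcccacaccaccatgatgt
1700029B22Rik: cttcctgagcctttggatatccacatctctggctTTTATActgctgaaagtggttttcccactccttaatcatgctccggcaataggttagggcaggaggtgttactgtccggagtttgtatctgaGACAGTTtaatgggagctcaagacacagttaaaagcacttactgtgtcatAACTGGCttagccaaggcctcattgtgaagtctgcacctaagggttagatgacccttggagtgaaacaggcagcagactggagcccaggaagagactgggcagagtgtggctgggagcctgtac
Itpr3os: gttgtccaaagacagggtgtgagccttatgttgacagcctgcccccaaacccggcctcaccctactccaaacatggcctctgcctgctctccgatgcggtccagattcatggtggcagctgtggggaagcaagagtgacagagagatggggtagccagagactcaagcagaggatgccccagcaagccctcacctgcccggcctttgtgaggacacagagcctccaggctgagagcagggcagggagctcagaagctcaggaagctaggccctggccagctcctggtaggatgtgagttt
Rab26os: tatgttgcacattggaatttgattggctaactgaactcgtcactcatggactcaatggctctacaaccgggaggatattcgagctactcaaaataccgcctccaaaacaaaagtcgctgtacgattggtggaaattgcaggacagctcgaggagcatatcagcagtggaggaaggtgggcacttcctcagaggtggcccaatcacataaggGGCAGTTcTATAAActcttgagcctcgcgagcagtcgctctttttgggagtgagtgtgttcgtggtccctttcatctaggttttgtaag
4930599N23Rik: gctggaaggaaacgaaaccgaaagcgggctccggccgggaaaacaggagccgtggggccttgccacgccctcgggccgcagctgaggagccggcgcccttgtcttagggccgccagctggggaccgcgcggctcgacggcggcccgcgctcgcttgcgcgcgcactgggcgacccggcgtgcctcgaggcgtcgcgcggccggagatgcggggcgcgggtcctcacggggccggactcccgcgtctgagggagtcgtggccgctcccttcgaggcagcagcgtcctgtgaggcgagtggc

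Among the loci that fell, the window of 1700016K05Rik holds 3 MYB motifs and that of 1700108J01Rik holds 1. That of 1700029B22Rik holds 2 and a TATA box on the other strand, and that of Itpr3os holds none of the motifs searched. Among the loci that rose, the window of Rab26os holds 1 MYB motif and a TATA box on its own strand, and that of 4930599N23Rik holds none. MYBL1 (A-MYB) is a transcription factor of pachytene spermatocytes that is known to drive meiotic and piRNA genes through this motif. The MYB motif was in 19.4% of the 206 windows of loci that fell, in 2 of 11 windows of loci that rose, in 12.8% of all 32851 windows of the table and in 11.8% of those of 12712 tested coding genes. Among the 67 loci with a window that fell by 4 or more on the log2 scale, 26.9% held it. Coding genes were not counted at that cut, and no difference in the motif was tested. The TATA box was in 12.4% of the 226 windows, in 13.6% of all windows and in 7.10% of those of tested coding genes, and the cyclic AMP response element TGACGTCA was in 2.65%, 1.79% and 3.03%. The median number of CpG dinucleotides was 6 in the windows of loci that fell (range 0 to 55) and 25 in the 11 windows of loci that rose (range 2 to 45), beside 7 in all windows and 20 in those of tested coding genes. In the windows of tested coding genes that fell the median was 17, and in those that rose 21. The ranges of the fallen and risen antisense loci overlapped, and the difference was not tested. The motif matches are a description of letters, and binding was not measured.

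The libraries held 14532453 to 16963019 recovered reads in the controls and 14770320 to 15204127 in the knockout. The deposited values had been scaled by a divisor of 0.691 to 0.774 times the total in the controls and 1.37 to 1.42 times in the knockout, so knockout values are lower beside control values than shares of reads are. Over the 16791 genes tested the log2 fold change had a median of -0.41 on the deposited scale and of 0.71, 0.53 and 0.42 under 3 other scalings. All 10 pachytene spermatocyte markers fell, and their summed level was between 5616 and 6789 FPKM in the control libraries and between 51.3 and 73.4 FPKM in the knockout libraries. All 10 spermatid markers fell as well, with sums between 17902 and 20860 FPKM in the controls and between 4.50 and 8.43 FPKM in the knockout. Of 10 spermatogonial markers 9 rose and 1 fell, with sums between 70.3 and 116 FPKM in the controls and between 550 and 670 FPKM in the knockout. Stra8 itself rose from 17.0 ± 5.55 to 133 ± 6.42 FPKM (SD, n = 3). All 8 Sertoli markers rose, with sums between 86.7 and 207 FPKM in the controls and between 392 and 722 FPKM in the knockout, and of 5 Leydig markers 3 fell and 1 rose. Of 4 macrophage markers 3 rose, with sums between 15.6 and 23.6 FPKM in the controls and between 27.1 and 82.3 FPKM in the knockout, and of 7 early meiosis markers 5 rose and 1 fell, with sums between 385 and 412 FPKM in the controls and between 441 and 602 FPKM in the knockout. These shifts move with the antisense falls and rises described here, and their part in them was not tested. Of the marker falls, those of Mybl1 (pachytene), Gfra1 (spermatogonia), Stag3 (early meiosis), Insl3 and Cyp11a1 (Leydig) were not called under all 4 scalings. In such bulk samples, fewer cells of a type and less RNA per cell cannot be told apart. Nor is it known how the counting treated strand, since the labels name the kit (TruSeq RNA) and no strand setting. Where exons overlap, reads of an antisense locus and of its coding gene cannot be told apart, and reads of an unspliced coding transcript can fall in an antisense exon inside its intron.

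Across the 719 loci, the summed level was 8319, 6949 and 7075 FPKM in the control libraries and 678, 698 and 679 FPKM in the knockout libraries, with no overlap of the groups. Their share of all recovered reads, which does not depend on the deposited scale, was 0.652% to 0.700% in the controls and 0.129% to 0.133% in the knockout. A level of 1 FPKM was reached by 664, 669 and 670 of the loci in the control libraries and by 197, 202 and 196 in the knockout libraries. Counted on group means, 518 loci reached 1 FPKM in the controls alone, 157 in both groups and 44 in the knockout alone. The rule takes the mean over both groups, so a locus that passed through 1 group only had to differ, and these counts describe the set without testing it. Just inside the threshold lay Gm17163, with a mean of 1.0036 FPKM, and Gm16180, with 1.0088, and just outside lay 1700094J05Rik, with 0.99862, and 6230400D17Rik, with 0.99061.

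The set is made of short and sparsely expressed genes. The median length was 866 bases and the median number of exons 3, with 68 genes of 1 exon. The median of the mean levels was 2.73 FPKM; 97 loci reached 10 FPKM and 246 were below 2 FPKM. A median locus held 159 reads over the control libraries and 12 over the knockout libraries. A group of 148 loci had no read in the knockout, and none lacked reads in the controls. With 3 reads over the group as the floor that a count of 0 allows, bounds were set on the deposited scale. They ran from 11.2-fold to 2576-fold lower in the knockout, with a median of 111-fold. On shares of reads the bounds would be smaller, since the deposited scale sets knockout values lower. Of these 148 loci, 147 were called lower. Predicted gene names (Gm numbers) made up 369 of the loci and clone names (Rik) 240. Chromosome 11 carried 65 of the loci, chromosome 2 carried 63 and the X chromosome 5.

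**Figure D1:**
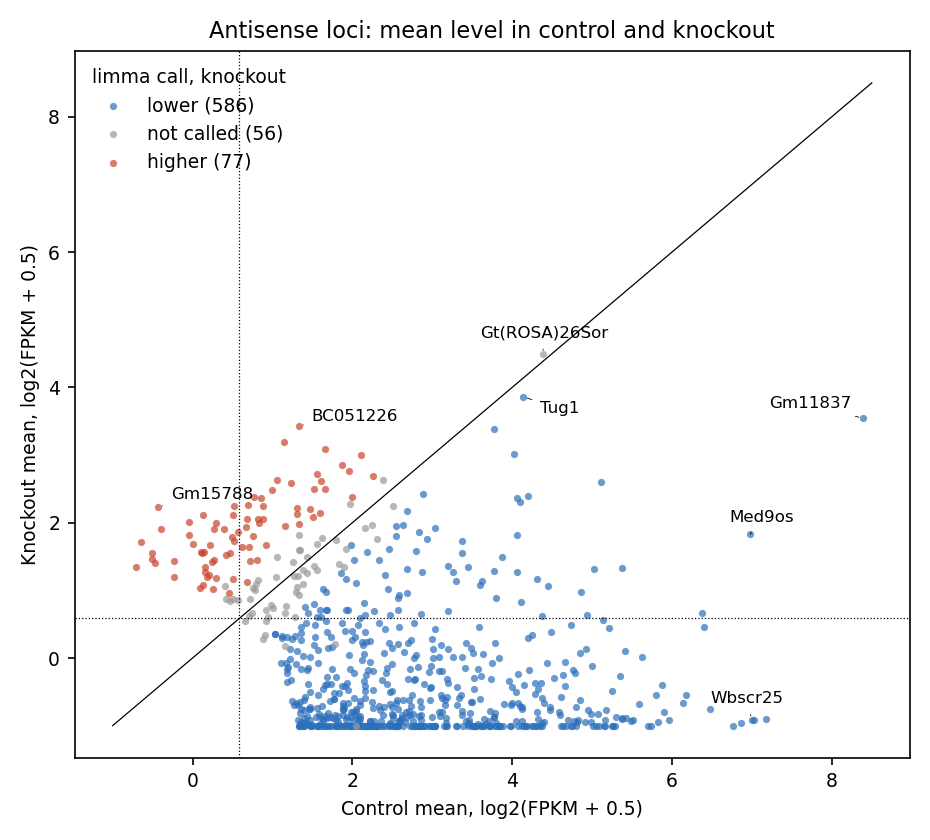
Mean level of each of the 719 antisense loci in the 3 control libraries (x axis) and the 3 knockout libraries (y axis), both as log2 of FPKM + 0.5, coloured by limma call; dotted lines mark 1 FPKM and the solid line equal levels. Most points lie below the line of equal levels, with 586 loci called lower, 77 called higher and 56 not called.

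The gene model, limma on log2(FPKM + 0.5) over the 16791 genes at a mean of 1 FPKM or more, called 663 of the 719 loci (92.2%) at an adjusted p of 0.05, where it called 86.6% of all genes tested. It called 81.5% of the loci lower, against 50.4% of all genes, and 10.7% higher, against 36.2% of all genes. The libraries of the groups did not overlap for 662 loci (92.1%), against 88.0% of all genes. A fall of at least 1 on the log2 scale was called for 550 loci (background 41.1%) and a rise of at least 1 for 54 (background 23.3%). The median log2 fold change was -2.71 over the loci and -0.41 over all genes, and it was -2.90 with the loci that had no knockout read set at their bound. The median of the loci was -1.60 with quantile normalization, -4.26 with a pseudocount of 0.1 and -4.86 with limma voom. Among the 157 loci that reached 1 FPKM in both groups, 75 were lower, 38 higher and 44 not called, with a median of -0.40, which is the median of all genes within 0.1. The direction of a small change depends on the scaling: 482 of the 586 lower calls (67.0% of the loci, background 34.2%) and all 77 higher calls (background 36.2%) were made under all 4 scalings, and 15 of the lower calls turned into higher calls under at least 1 of them. The 3 other scalings raise knockout values beside control values, so a higher call on the deposited scale is kept almost by construction. Over all genes 6074 of the 6075 higher calls were kept. With FPKM rescaled to a common sum the loci split into 128 higher and 524 lower, and all 16791 genes into 9109 higher and 6084 lower.

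The most abundant antisense RNA was Gm11837 (chr4:14929908-14953030, plus strand, mm10), whose end overlaps the end of Necab1, a neuronal calcium-binding protein gene. It was at 402, 323 and 278 FPKM in the controls and at 10.1, 13.6 and 9.69 FPKM in the knockout. Every knockout library lay far below every control library, and the log2 fold change was -4.84 ± 0.171 (SE, adjusted p = 5.6e-08, limma). Necab1 itself was below the expression minimum at 0.324 ± 0.151 and 0.270 ± 0.0640 FPKM (SD, n = 3). Without Gm11837 the summed level of the loci was 6626 to 7917 FPKM in the controls and 668 to 684 FPKM in the knockout, so the summed difference did not rest on that gene.

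The largest falls were of RNAs that all but disappeared. 1700108J01Rik (chr14:122229905-122233654, minus strand) lies inside Clybl, the gene of a mitochondrial citramalyl-CoA lyase, without touching its exons. It was at 151, 135 and 148 FPKM in the controls and at 0, 0.102 and 0 FPKM in the knockout. Its 2474 control reads faced 1 knockout read, a ratio of 4362 on the deposited scale. Its exact 95% interval, for counting error alone, runs from 782 to 172360, and the fitted log2 fold change was -8.09 ± 0.115 (SE, adjusted p = 1.0e-09, limma). The interval is wide because a single read stands on the knockout side. Clybl moved the other way, from 1.17, 0.738 and 1.01 FPKM to 2.43, 2.29 and 1.91 FPKM (adjusted p = 0.0016, limma).

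4930589P08Rik (chr4:151376470-151379582, plus strand) lies inside Camta1, which encodes a calmodulin-binding transcription activator. It was at 97.0, 91.2 and 137 FPKM in the controls and had no read in any knockout library. Against the floor of 3 reads over the group it was at least 2458-fold lower on the deposited scale, a bound that shares of reads would make smaller. Camta1 was at 2.87, 2.92 and 2.48 FPKM in the controls and at 4.86, 5.08 and 5.16 FPKM in the knockout, higher in every knockout library (adjusted p = 0.00035, limma). The same opposite course was measured for 1700019G24Rik, inside the dynein intermediate chain gene Dync1i1, which went from 98.6, 78.8 and 88.4 FPKM to 0.0919, 0.197 and 0 FPKM. Dync1i1 rose from 2.70 ± 0.297 to 4.45 ± 0.935 FPKM (SD, n = 3). Gm16226, inside Rasgef1b, a Ras-family exchange factor gene, went from 63.7, 57.5 and 64.5 FPKM to 0.0414, 0.0442 and 0 FPKM, while Rasgef1b rose from 0.851 ± 0.0751 to 1.46 ± 0.188 FPKM (SD, n = 3). These 4 antisense genes share no exon base with the coding gene, and each knockout library was below each control library for the antisense RNA and above it for the coding RNA.

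Other abundant loci fell together with their coding gene. 2610318M16Rik (chr14:8367440-8371010, plus strand), inside Oit1, was at 147, 114 and 129 FPKM in the controls and at 0, 0.0855 and 0 FPKM in the knockout. Oit1 fell from 53.8 ± 5.41 to 0.0920 ± 0.0324 FPKM (SD, n = 3), a log2 fold change of -6.52 beside -7.94 for the antisense RNA. Wbscr25, which overlaps the end of the tight junction gene Cldn3 by 40 bases, went from 136, 126 and 120 FPKM to 0.0218, 0.0467 and 0.0228 FPKM. Cldn3 fell from 36.6 ± 3.71 to 3.32 ± 1.95 FPKM (SD, n = 3). Kcnmb4os1, inside the potassium channel subunit gene Kcnmb4, went from 73.0, 61.1 and 75.2 FPKM to 0.280, 0.120 and 0 FPKM, and Kcnmb4 fell from 5.19 ± 0.409 to 0.547 ± 0.0746 FPKM (SD, n = 3).

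1700027A15Rik spans Tnp1, the gene of the transition protein that replaces histones in spermatids. It was at 112, 101 and 134 FPKM in the controls and at 0, 0 and 0.0346 FPKM in the knockout. Tnp1 was at 1080, 899 and 1697 FPKM in the controls and at 0.423, 0.226 and 0.774 FPKM in the knockout. Both were near 0 in each knockout library. Their ratio rose by 2.47 ± 0.212 (SE) on the log2 scale with a pseudocount of 0.5 and was -0.92 with limma voom on recovered reads, so no direction can be given for it.

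Rises were smaller and came from low control levels. Gm15788 (chr5:110262161-110277267, plus strand) starts inside Pgam5, the gene of a mitochondrial phosphatase, whose own start it spans. It was at 0.321, 0.409 and 0 FPKM in the controls and at 4.37, 4.46 and 3.79 FPKM in the knockout. The groups lay apart, with 8 control reads against 245 knockout reads, a ratio of 17.4 after scaling (exact 95% counting interval 8.68 to 40.7) and a log2 fold change of 2.71 ± 0.242 (SE, adjusted p = 1.5e-05, limma). Pgam5 rose less, from 5.74 ± 0.771 to 10.8 ± 0.267 FPKM (SD, n = 3), and shares no exon base with it.

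Gm14453 lies inside Rbm38, whose product is an RNA-binding protein and a p53 target. It was at 0, 0.413 and 0 FPKM in the controls and at 2.09, 3.22 and 3.06 FPKM in the knockout, with 3 control reads in all, so that its scaled ratio of 18.1 has a counting interval of 6.03 to 89.6. Rbm38 rose from 7.76 ± 2.05 to 42.3 ± 4.75 FPKM (SD, n = 3). The genes share 227 exon bases, and reads in those bases cannot be assigned to a strand here. Gm12227 rose from 0.262 ± 0.230 to 3.26 ± 0.479 FPKM (SD, n = 3) inside Cdc42se2, a small effector of the GTPase Cdc42, which rose from 14.6 ± 3.88 to 52.9 ± 2.46 FPKM without a shared exon base. Rap1gapos, inside the GTPase-activating gene Rap1gap, had 2 control and 61 knockout reads, a scaled ratio of 17.3 with a counting interval of 4.59 to 146. The ratio of antisense to coding RNA was not called for these 3 pairs at a pseudocount of 0.5, and was called higher with limma voom on recovered reads. For Gm14453 and Rbm38 it was called lower, at -0.59, with a pseudocount of 1 (adjusted p = 0.022, limma).

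For other rises the coding gene did not pass the test or was not tested. 9630013K17Rik, inside the heme A synthesis gene Cox10, was at 0.186, 0.355 and 0.0757 FPKM in the controls and at 2.20, 2.35 and 2.75 FPKM in the knockout. Cox10 was at 9.53 ± 1.12 and 10.1 ± 0.260 FPKM (SD, n = 3; adjusted p = 0.51, limma). Gm16161, inside the phosphoinositide phosphatase gene Mtmr14, was at 1.37, 2.36 and 1.40 FPKM in the controls and at 10.4, 7.67 and 7.99 FPKM in the knockout, where Mtmr14 was at 16.4 ± 1.16 and 15.4 ± 0.715 FPKM (adjusted p = 0.43, limma). Every knockout library exceeded every control library for both antisense RNAs. Rab26os, a gene of 1 exon inside the vesicle GTPase gene Rab26, was at 0.601, 0.153 and 0.653 FPKM in the controls and at 3.90, 2.49 and 4.18 FPKM in the knockout, and Rab26, whose mean lay under the expression minimum and was not tested, was at 0.190 ± 0.0814 and 1.26 ± 0.451 FPKM (SD, n = 3), higher in every knockout library.

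**Figure D2:**
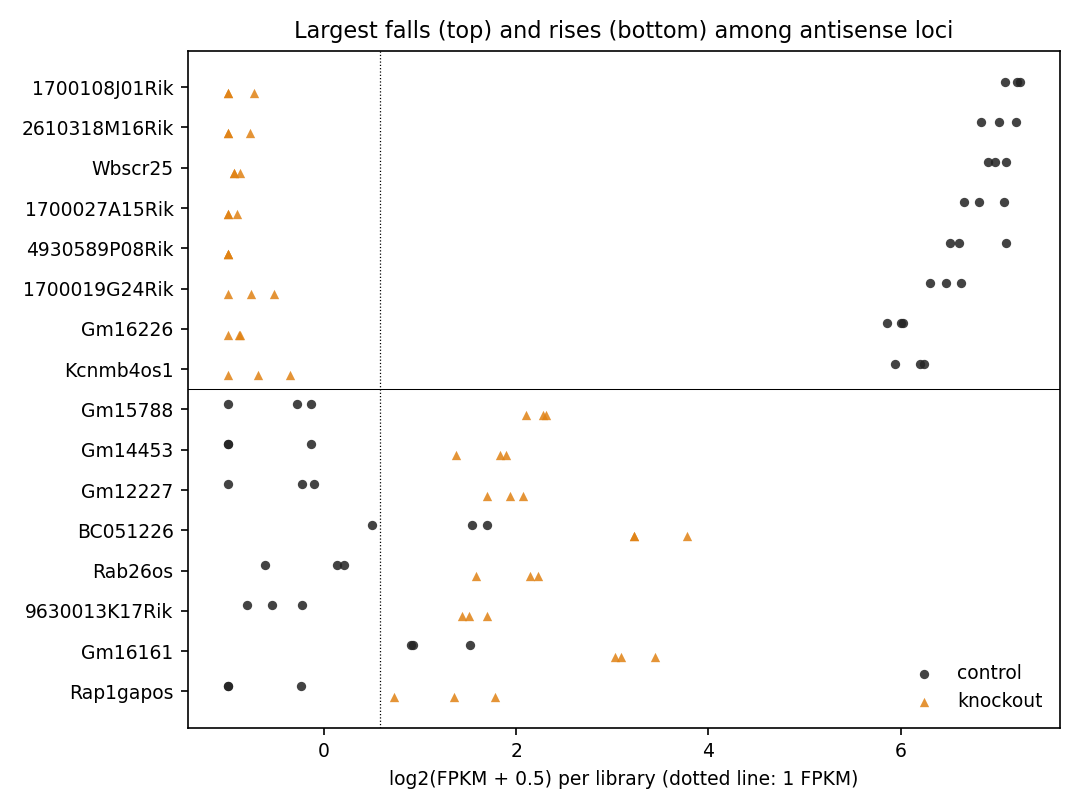
Level of each library as log2 of FPKM + 0.5 for the 8 largest falls (top) and 8 largest rises (bottom) among the antisense loci, with circles for the 3 control and triangles for the 3 knockout libraries. The falls start from control means of 61.9 to 145 FPKM and end near 0, the rises end at knockout means of 2.05 to 10.3 FPKM, and the groups do not overlap for any of the 16.

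A coding gene lies on the other strand of 636 of the 719 loci, and 83 overlap none. For 46 of these 83, a coding gene starts within 1000 bases upstream on the other strand, so both are transcribed away from a common region. Of these 46 divergent pairs, both genes were lower in 25 and both higher in 3, the antisense RNA was lower and the coding gene higher in 2, and the reverse held in 3. The same direction was thus called in 60.9% and opposite directions in 10.9%. All overlapping pairs on opposite strands had 47.8% and 25.9%, and the 492 of an antisense locus with its coding gene had 56.5% and 22.8%. The choice of the loci by their mean level favours antisense falls, so these shares describe the pairs without testing them. In the other 13 divergent pairs at least 1 of the genes was not called or not tested. Med9os, whose start is 64 bases from that of the Mediator subunit gene Med9, was at 146, 117 and 115 FPKM in the controls and at 2.37, 4.41 and 2.38 FPKM in the knockout. Med9 fell less, by 1.34 ± 0.104 (SE) on the log2 scale beside a fall by 5.19 ± 0.217 for the antisense RNA (adjusted p = 6.5e-06 and 1.5e-07, limma). BC051226, 97 bases from the start of the histone chaperone gene Daxx, was at 0.916, 2.41 and 2.74 FPKM in the controls and at 8.87, 8.88 and 13.2 FPKM in the knockout. Daxx went down as the antisense RNA went up, from 60.4 ± 7.74 to 22.4 ± 0.826 FPKM (SD, n = 3).

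The ratio of antisense to coding RNA within a library cancels the library scaling except for the 0.5 FPKM added to each gene, and was tested by limma over 2228 pairs of tested genes on opposite strands. It changed in 388 of the 492 pairs of an antisense locus and its coding gene (78.9%), where it changed in 80.1% of all pairs. It fell in 55.3% (background 42.3%) and rose in 23.6% (background 37.8%), with a median of -1.05 over the 492 pairs and -0.12 over all. The size of that median depends on the scale: it was -1.84 with a pseudocount of 0.1, -0.70 with 1 and -2.21 with limma voom. In fits added after the data were seen, with FPKM rescaled to a common sum, the ratio was called in 393 pairs (293 lower, 100 higher), and with recovered reads rescaled in 397 (290 lower, 107 higher). Under both rescalings 366 of the 388 calls kept their direction and none turned to the other. All pairs also hold coding genes that face each other, whose order in the ratio carries no meaning. Of the 719 loci, 518 reached the minimum through the control mean alone, which favours a fall of the ratio. The shares of falls and rises therefore describe the pairs without testing the set. Leaving out each library in turn kept the call of 364 pairs, and the other pseudocounts and limma voom kept that of 338, 249 of them lower and 89 higher. Among the 272 falls of the ratio the coding gene was called lower in 127, higher in 103 and not called in 42. Among the 116 rises the antisense RNA itself was lower in 65, higher in 31 and not called in 20.

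Called separately, both genes were lower in 245 of the 492 pairs and both higher in 33, which is 56.5% with the same direction against 47.8% of all opposite-strand pairs. In 93 pairs the antisense RNA was lower and the coding gene higher, and in 19 the reverse, which is 22.8% with opposite directions against 25.9% of all pairs. Calls opposite under all 4 scalings remained for 82 pairs, 16.7% against 15.3%. These shares of opposite pairs were near the background. The choice of the loci by their mean level favours antisense falls, and so pairs with both genes lower. The shares in either direction therefore describe the pairs without testing them. Across the 492 pairs the log2 fold changes of the antisense and coding genes correlated with Pearson's r of 0.29 and Spearman's rho of 0.29, given as a description over pairs that share the same 6 libraries.

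**Figure D3:**
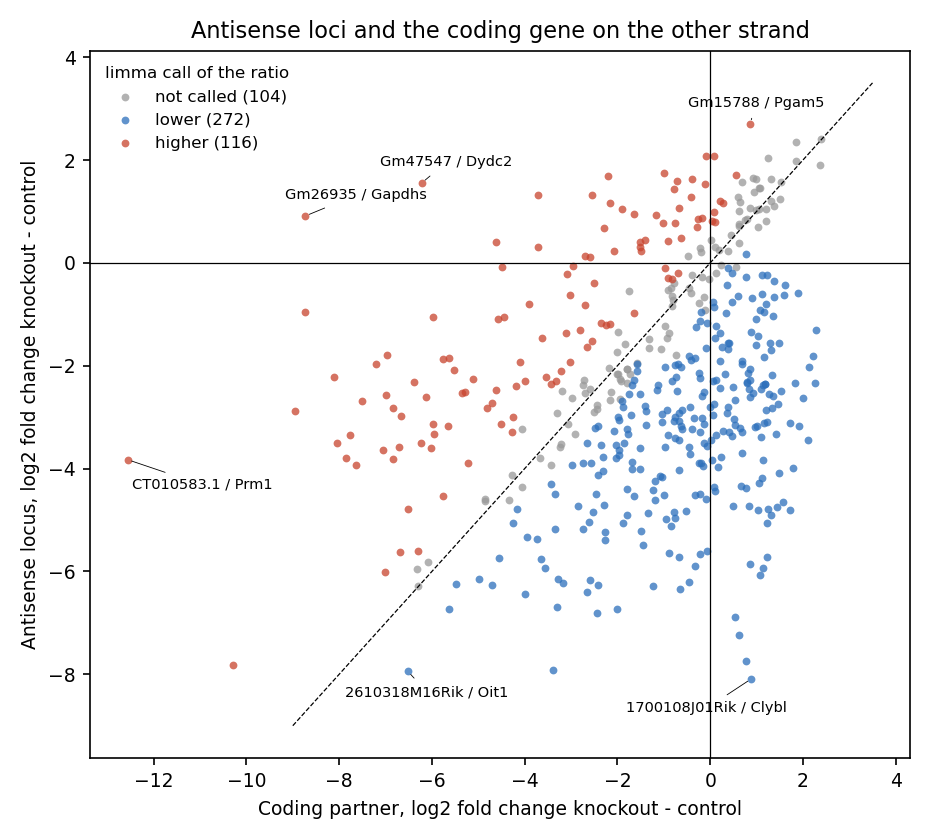
Log2 fold change, knockout minus control, of the coding gene (x axis) and of the antisense locus (y axis) in the 492 pairs, coloured by the limma call of their ratio; the dashed line marks equal change. Points are spread over all 4 quadrants, with 272 pairs called lower and 116 called higher in the ratio.

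The largest falls of the ratio, after those of the Clybl, Camta1, Dync1i1 and Rasgef1b pairs, were of 1700020G17Rik with E2f7 and of Itpr3os with Itpr3. 1700020G17Rik was at 41.8, 33.3 and 30.9 FPKM in the controls and at 0.0939, 0 and 0 FPKM in the knockout. E2f7, a repressor of cell cycle genes, rose from 0.940, 0.921 and 1.19 FPKM to 2.05, 2.83 and 3.32 FPKM. The log2 ratio of this pair fell by 7.14 ± 0.275 (SE, adjusted p = 1.1e-07, limma), and the genes share 86 exon bases. Itpr3os was at 31.2, 33.0 and 29.1 FPKM in the controls and at 0, 0 and 0.0608 FPKM in the knockout, where Itpr3, a calcium channel of the endoplasmic reticulum, rose from 3.15 ± 0.490 to 7.48 ± 0.808 FPKM (SD, n = 3). Its log2 ratio fell by 7.06 ± 0.151 (SE, adjusted p = 1.2e-08, limma).

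The 6 largest rises of the ratio stood opposite coding genes that themselves fell by 6.22 to 12.56 on the log2 scale. Gapdhs, the sperm form of the glycolytic enzyme GAPDH, was at 1004, 845 and 871 FPKM in the controls and at 1.55, 1.44 and 1.95 FPKM in the knockout. Opposite it, Gm26935 was at 0.384, 1.17 and 0.626 FPKM in the controls and at 1.34, 2.29 and 1.67 FPKM in the knockout, so that the groups lay side by side without overlap. The log2 ratio rose by 9.64 ± 0.339 (SE, adjusted p = 6.8e-08, limma), and the rise of Gm26935 alone, 0.91 on the log2 scale (adjusted p = 0.014, limma), was 0.75 without knockout replicate 2 (adjusted p = 0.058). Tmem147os, which spans Gapdhs, was at 3.73, 4.09 and 3.10 FPKM in the controls and at 1.99, 1.64 and 1.33 FPKM in the knockout. Its fall of 0.95 on the deposited scale was 0.040 in the other direction with FPKM rescaled, while the ratio to Gapdhs rose by 7.78 ± 0.228 (SE), and by 7.87 and 7.72 with FPKM and with recovered reads rescaled.

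CT010583.1 fell from 12.9, 9.53 and 10.5 FPKM to 0.467, 0.0998 and 0.390 FPKM beside Prm1, a protamine gene, which went from 6089, 4793 and 4999 FPKM to 0.162, 0.692 and 0.338 FPKM. Its ratio to Prm1 rose by 8.73 ± 0.356 (SE) as Prm1 fell further. Gm47547, inside Dydc2, rose itself, as Gm26935 did, with 156 control and 979 knockout reads. It was at 0.918, 1.74 and 2.06 FPKM in the controls and at 8.45, 4.99 and 3.72 FPKM in the knockout, and Dydc2 fell from 57.3 ± 9.26 to 0.272 ± 0.0578 FPKM (SD, n = 3) without a shared exon base. Cdrt4os1 and C330018A13Rik fell together with Cdrt4 and Ccdc60, and their ratios rose by 6.08 ± 0.216 and 5.88 ± 0.228 (SE).

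**Figure D4:**
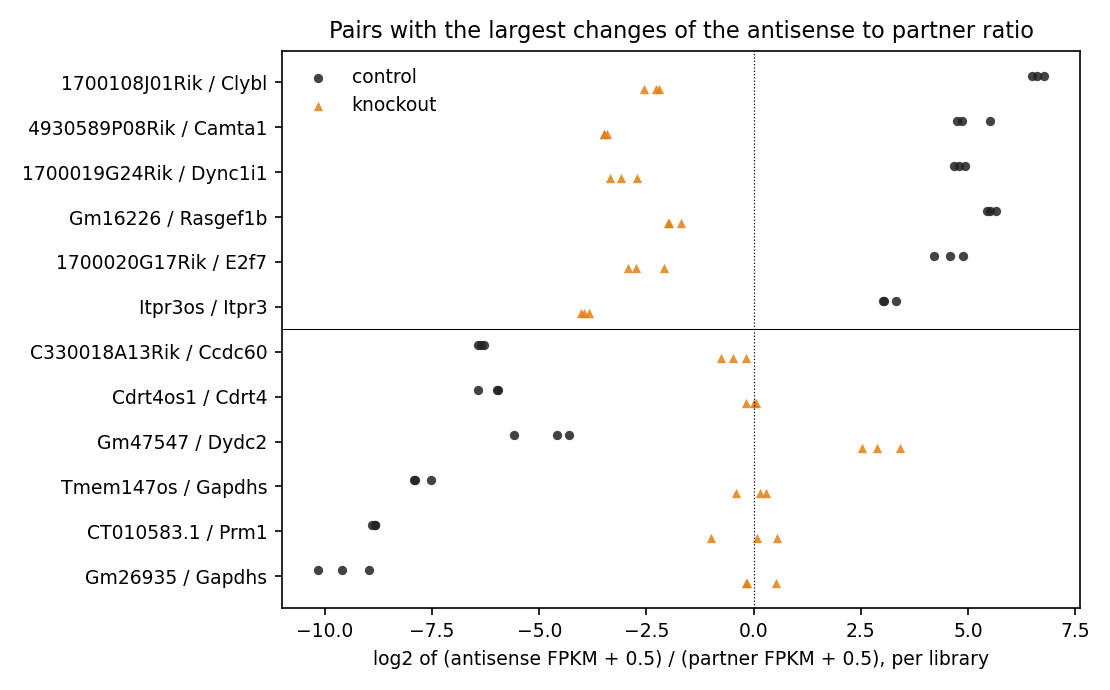
Log2 ratio of antisense to coding FPKM, each with 0.5 added, in each control library (circles) and knockout library (triangles) for the 6 largest falls (top) and 6 largest rises (bottom) of the ratio. In the upper pairs the antisense RNA exceeds the coding RNA in every control library and lies below it in every knockout library.

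The arrangement of the genes was compared across the 636 loci with a coding gene. A group of 340 lay within the coding gene, 160 were head to head, with each start inside the other gene, 108 were tail to tail and 28 spanned the coding gene. The median log2 fold change was -3.13 for loci within the coding gene, -2.53 head to head, -1.80 tail to tail and -2.55 for loci that span it. Both genes of a pair were lower in 79 of 140 head to head pairs (56.4%), 125 of 246 within (50.8%), 29 of 88 tail to tail (33.0%) and 12 of 18 where the coding gene lies within the locus (66.7%). Over all 492 pairs the share was 49.8%. The coding genes themselves differed, with a median log2 fold change of -0.82, -0.78, -0.15 and -3.59 in the same order. What part this had in the shares was not tested. Pearson's r between the fold changes was 0.34 head to head, 0.30 within, 0.18 tail to tail and 0.43 for the 18 spanning loci, over pairs that share the same libraries. The median change of the log2 ratio was -0.94, -1.32, -0.69 and 1.25 in the same order. For 378 loci some exon bases overlap those of the coding gene and for 257 none do. The antisense RNA was lower and the coding gene higher in 17.9% of 162 pairs without exon overlap and in 19.1% of 329 pairs with it.

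**Figure D5:**
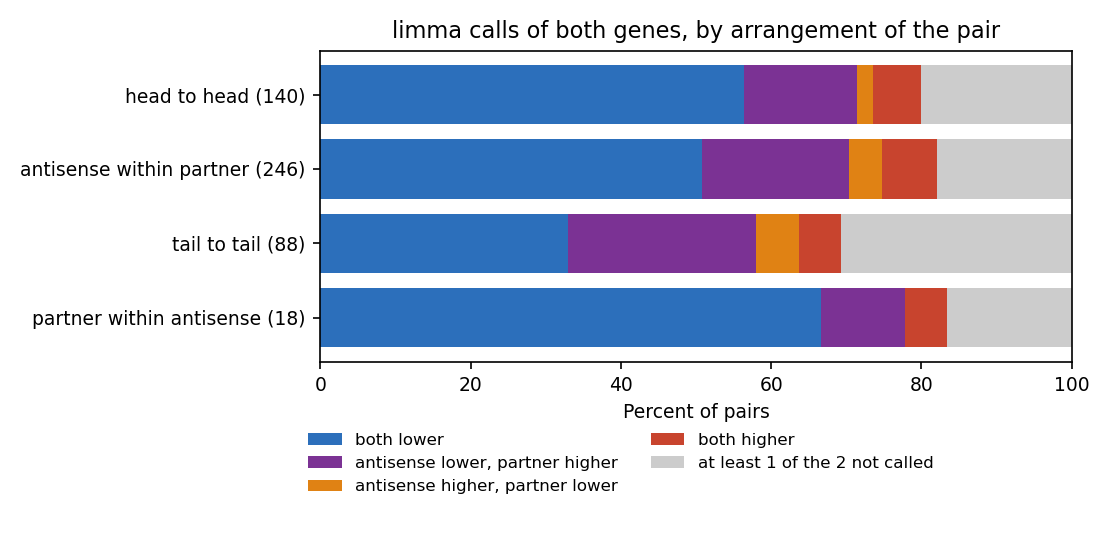
Percent of pairs by the limma calls of both genes, for head to head (140 pairs), antisense within the coding gene (246), tail to tail (88) and coding gene within the antisense locus (18). Both genes were lower in 56.4% of head to head pairs and in 33.0% of tail to tail pairs, beside 49.8% of all 492 pairs. The median log2 fold change of the coding genes was -0.82 head to head and -0.15 tail to tail.

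In 144 pairs the coding gene was below the expression minimum, and 136 of those antisense loci were lower (94.4%, against 81.5% of the 719 loci and 50.4% of all genes), 6 higher and 2 not called. The loci were chosen by a mean that most reached through the controls alone, so this share describes them without testing them. 1700029B22Rik, inside the growth factor receptor gene Fgfr2 and named after its values were seen, was at 56.4, 54.3 and 48.3 FPKM in the controls with no knockout read. Fgfr2 was at 0.205 ± 0.0557 and 0.321 ± 0.0456 FPKM (SD, n = 3). 1700016K05Rik, also named for its promoter, was at 59.4, 35.7 and 28.2 FPKM in the controls, a wide spread, and at 0, 0.128 and 0 FPKM in the knockout. 4930599N23Rik, the CpG-rich example, was at 3.40, 2.85 and 3.87 FPKM in the controls and at 6.72, 7.02 and 5.16 FPKM in the knockout.

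A coding gene faced 2 of the loci in 23 cases. Both antisense RNAs were lower at 17 of these coding genes and both higher at 2, they went in opposite directions at 2, and 1 was lower and the other not called at 2. At Ppp4r3a, named after its values were seen, D130020L05Rik was at 30.1 and 1.05 FPKM and Gm47639 at 1.35 and 4.27 FPKM in control and knockout. Of the 86 loci whose name marks them as opposite strand (os) of a named gene, 75 were lower (87.2%, against 81.5% of the 719 loci and 50.4% of all genes), 4 were higher and 7 were not called. Under all 4 scalings 64 were lower (74.4%, against 67.0% of the 719 loci and 34.2% of all genes). The choice of the loci by their mean level favours falls in these shares too.

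Antisense RNAs with a known role were looked for by name. Of 39 names on the list, 34 were in the table, 10 with the antisense biotype, and 1, Nespas, reached 1 FPKM. Nespas is the paternally expressed antisense RNA of the imprinted Gnas locus. It was at 1.01, 1.38 and 1.11 FPKM in the controls and at 1.00, 1.10 and 1.15 FPKM in the knockout, and the groups overlapped. Its log2 fold change was -0.07 ± 0.162 (SE, adjusted p = 0.69, limma) on the deposited scale and 0.57 to 1.27 and called higher under the other scalings. Gt(ROSA)26Sor and Tug1, widely expressed noncoding RNAs, were named here after their values were seen. Gt(ROSA)26Sor was at 20.4 ± 1.03 FPKM in the controls and at 21.9 ± 1.35 FPKM in the knockout (SD, n = 3; adjusted p = 0.30, limma). Tug1 was at 17.9, 17.1 and 16.3 FPKM in the controls and at 13.6, 14.4 and 14.1 FPKM in the knockout, lower on the deposited scale although it held 5898 control and 8542 knockout reads. It was 0.89 higher on the log2 scale with FPKM rescaled to a common sum.

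Genes that degrade, process and bind antisense and double-stranded RNA were read from 3 lists. The nuclear exosome trims and degrades unstable nuclear RNA: of its 22 tested genes and adaptors 10 rose, 8 fell and 4 were not called, with a median log2 fold change of 0.23 beside -0.41 for all genes, of which 36.2% rose and 50.4% fell. The summed level of the exosome list was between 612 and 685 FPKM in the controls and between 377 and 406 FPKM in the knockout. Ncbp1, the most abundant of its genes in the controls, fell from 197 ± 20.3 to 38.1 ± 2.04 FPKM (SD, n = 3). Exosc3, a cap subunit, fell from 54.2 ± 4.18 to 8.21 ± 0.974 FPKM (SD, n = 3) and Exosc5 from 48.3 ± 3.08 to 8.24 ± 0.190, while Exosc8 rose from 3.85 ± 1.10 to 15.9 ± 0.846 FPKM. Of 10 genes of small RNA processing 6 rose, 3 fell and 1 was not called, and their summed level was between 109 and 122 FPKM in the controls and between 111 and 119 FPKM in the knockout. Tarbp2, a partner of Dicer and the most abundant of them in the controls, fell from 51.0 ± 5.18 to 15.1 ± 1.36 FPKM (SD, n = 3). Dicer1, which cuts double-stranded RNA, rose from 2.28 ± 0.432 to 12.5 ± 1.14 FPKM (SD, n = 3), and Ago1, which binds the small RNAs made from it, from 1.58 ± 0.0493 to 8.17 ± 0.632. Of 11 tested genes that bind, edit or sense double-stranded RNA 6 rose, 4 fell and 1 was not called. The summed level of that list was between 309 and 353 FPKM in the controls and between 173 and 192 FPKM in the knockout. The editing enzyme gene Adar rose from 1.42 ± 0.329 to 7.28 ± 0.477 FPKM (SD, n = 3), and the germ cell gene Adad1, of the same domain family, fell from 176 ± 25.8 to 9.92 ± 1.10. The calls of the genes named here were made under all 4 scalings. Of the 15 falls over the lists, 10 were not. Rises are nearly always kept, since the other scalings raise knockout values.

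Some of these genes face antisense loci themselves, named here after their values were seen. Gm7568, inside the double-stranded RNA binding gene Stau2, went from 14.8, 17.5 and 16.6 FPKM to 0.0461, 0.148 and 0.193 FPKM as Stau2 rose from 1.22 ± 0.0996 to 4.21 ± 0.631 FPKM (SD, n = 3). Gm13427, at the end of the exosome gene Exosc2, fell from 2.27 ± 0.343 to 0.203 ± 0.0750 FPKM as Exosc2 rose from 4.94 ± 0.407 to 8.26 ± 0.672 FPKM.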

How the data were processed

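Gene levels of 719 antisense loci were compared between 3 control and 3 knockout RNA sequencing libraries, grouped and numbered by their titles. Per the submitters' processing notes, HISAT2 2.0.5 and the build mm10 were used. The authors deposited FPKM values, and the sources used here do not give the counter, annotation or strand setting. Multiplied by gene length, 100% of nonzero values were whole multiples of 1 read within 0.01, which gave the reads per gene.

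Of 54532 genes, 16791 had a mean of at least 1 FPKM. Limma 3.58.1 (R 4.3.3) was fitted to log2(FPKM + 0.5) with a mean-variance trend, and to the log2 ratio within 2228 opposite-strand pairs (at least 1 base of overlap), with Benjamini-Hochberg adjustment and a threshold of 0.05. Each locus was paired with the coding gene of largest overlap. Exons came from GENCODE M21, where 714 of the 719 loci have the same position. Log2 fold changes understate the change of low genes. Other scalings were FPKM or recovered reads rescaled to a sum of 1000000 per library, and quantile normalization. The fits were run on simulated data in which few genes changed and both groups were scaled alike. That setting differs from these libraries, so it does not cover shifts as wide as those seen here. Tables were prepared in Python 3.11.15.

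Named loci were the 8 highest, the 8 largest rises and 8 largest falls (groups apart, higher group at 2 FPKM or more), the 6 largest changes of the pair ratio each way, members of a list of 39 known names, and their partners; exceptions are marked. Members, lists and marker genes were chosen with earlier results of these data known. Alternatives were other pseudocounts, filters, scalings, pair definitions, no trend, a replicate block, limma voom on recovered reads and leaving out each library; rescaled pair ratios were added after the data were seen. The result for 1 coding gene is not reported here.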

Additional observations from a re-analysis of the deposited data

How the results depend on the processing

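With the expression minimum raised to 5 FPKM, 207 loci entered, of which 205 were called, 200 lower and 5 higher, against 663, 586 and 77 at 1 FPKM. Of all 9583 genes at that minimum 8547 were called, 5320 lower and 3227 higher. Higher calls numbered 128 with FPKM rescaled, 127 with quantile normalization and 113 with recovered reads rescaled. Over all 16791 genes they numbered 9109, 8745 and 8491 in the same order. Called pair ratios numbered 252 of 327 with an overlap of at least 50% of the locus (181 lower, 71 higher), 78 of 88 with both genes at 5 FPKM (66 lower, 12 higher) and 126 of 162 without exon overlap (86 lower, 40 higher), since fewer pairs enter. Over all opposite-strand pairs 751 of 980, 658 of 752 and 532 of 709 were called in the same order. Leaving out each library gave 644 to 654 loci called (575 to 583 lower, 63 to 72 higher) and 373 to 388 pairs (262 to 274 lower, 111 to 117 higher). Limma voom called 652 loci and 389 pairs. Reversed signs came with voom for the ratio of 1700027A15Rik to Tnp1 (-0.92), with a pseudocount of 1 for that of Gm14453 to Rbm38 (-0.59, adjusted p = 0.022), and with other scalings for Tmem147os (0.040) and Nespas (0.95, 1.27 and 0.57); the cause was not tested. Another 85 counts over these settings stayed within 1.5 times the value reported.

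No pairing of the libraries by the replicate numbers, shared between groups in the titles, was seen. Deviations of same-numbered libraries correlated at -0.12, -0.05 and -0.04, and none correlated best with its own number. With 3 libraries per group such a check can miss a pairing. With the replicate number as a block, 658 loci (74 higher, 584 lower) and 385 pairs (116 higher, 269 lower) were called.

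Depth limits the low side: 249 loci had at most 3 knockout reads, so their fold changes are bounds or have wide counting intervals.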
